A study of Bos taurus with 30 samples.

Results

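The 200 transcripts described here are those of the bovine cervix whose levels differed most between heifers of the same stage of the cycle, without peaking at 1 stage. They were chosen from 28054 transcript IDs. The level used was CPM, the count of a transcript times 1000000 over the total count of its library. A mean of 10 to under 1000 CPM over 30 heifers was met by 10640 transcripts. Of these, 9627 had a highest stage median (of CPM + 0.5) under 1.5 times the second highest. The 200 with the largest standard deviation (SD) of log2(CPM + 1), after each stage's mean was subtracted, are the members. This within-stage SD ranged from 1.14 to 2.61 among them on the log2 scale.

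The study followed the cervix of Limousin heifers through a synchronised cycle, with 1 polyadenylated RNA library per heifer. All heifers, in every group, had carried a vaginal CIDR device (controlled internal drug release) holding 1.94 g of progesterone for 8 days. They had also been given 0.5 mg of a prostaglandin F2α analogue by injection 1 day before the device came out, so no group was left untreated. Only heifers seen in standing oestrus were kept, which could not be checked here for those killed 12 or 24 h after device removal. Slaughter was 12 h (CIDR+12h, n = 6) or 24 h (CIDR+24h, n = 6) after device removal, or at the onset of oestrus (Oestrus, n = 4). The other heifers were killed 12 h (Oestrus+12h, n = 4), 48 h (Oestrus+48h, n = 5) or 7 days (Luteal, n = 5) after that onset. The sources used here give neither the age of the heifers nor the part or layer of the cervix sampled. For Oestrus+12h and Oestrus+48h the protocol text gives 5 and 4 heifers, the reverse of the sample labels used here.

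The cervix is a canal of folded mucosa with a mucus-secreting epithelium, set in dense connective tissue with smooth muscle, blood vessels and resident immune cells. In general, oestrogen around oestrus brings a thin, abundant mucus and progesterone a thick one that closes the canal. A tissue piece mixes these layers, and in bulk RNA fewer cells of a type and less RNA per cell cannot be told apart. The deposited files identify transcripts by ID alone and 0 of the members could be matched to a gene name. The members are therefore described by their levels, and no gene, pathway or cell type is named. For the same reason the tissue label could not be checked against marker genes.

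Library totals ranged from 5434853 to 19628122 counts, and the members held from 1.09% to 3.24% of a library. A count of 0 allows up to 3 counts, which is 0.153 CPM in the deepest library and 0.552 CPM in the shallowest. Between 6.87% and 23.6% of all counts in a library fell on its 10 leading transcripts. Factors of the trimmed mean of M-values (TMM) method, which compare the bulk of transcripts between libraries, ranged from 0.791 to 1.28. In 3 heifers (CIDR+12h replicate 5 and Oestrus replicates 3 and 4) the animal number has 2 digits before the hyphen. Their TMM factors were 1.20, 1.25 and 1.28. Factors of this size were also found without this form of number, 1.27 in Oestrus replicate 1 and 1.22 in Oestrus+12h replicate 1. The labels do not say what this form of number means.

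The spread of the members was far wider than that of the transcripts they were drawn from, as the rule requires. Their median within-stage SD was 1.32 on the log2 scale, against 0.386 over all 9627. In its most variable stage, the median member differed 31.3-fold between the highest and lowest heifer on the CPM + 1 scale, against 2.75-fold over all 9627. Counting error alone would give a median SD of 0.121 for the members on the same log2 scale. At the limit of the rule, the members ranked 199 and 200 had SDs of 1.1405 and 1.14005, and the next 2 transcripts, which are not members, had 1.1392 and 1.1390. The means of the members reached from 10.4 to 857 CPM, with a median of 48.5 CPM, so wide spread was found at both low and high levels. Another 216 transcripts had as large an SD but were left out for a stage median that stood above the rest.

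**Figure D1:**
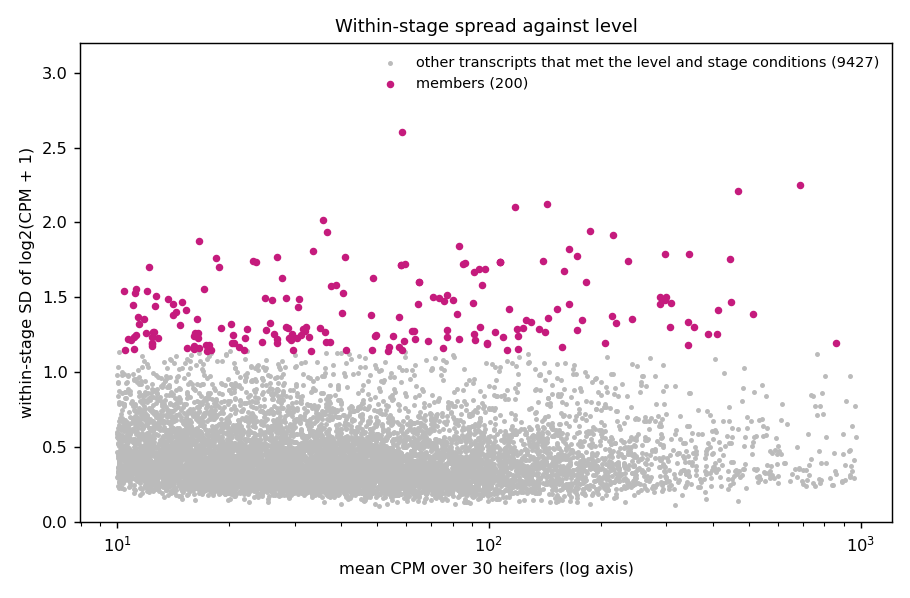
Each point is 1 of the 9627 transcripts that met the level and stage conditions, with its mean CPM over 30 heifers on a log axis and its within-stage SD of log2(CPM + 1). The 200 members (pink) lie at an SD of 1.14 or more and spread over the whole range of levels, while the median of all points is 0.386.

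In most members the spread was shared among heifers rather than held by 1. The most extreme heifer held 15.7% of a member's within-stage sum of squares at the median, against 16.8% over all 9627 transcripts. Its deviation was above the stage mean in 83 members and below it in the other 117 (41.5% above, against 51.1% above over all 9627). The heifer that was most extreme for the most members was CIDR+24h replicate 5, with 27 of 200 (13.5%, against 9.61% over all 9627). Next came Oestrus+48h replicate 4 with 21, of which 17 were low. Its share of 10.5% was below its 12.9% over all 9627 transcripts, the highest of any heifer there. CIDR+12h replicate 5 was most extreme for 17 members (8.5%, against 8.54% over all 9627). Oestrus replicates 3 and 4 and Oestrus+12h replicate 4 were most extreme for 0 members. Their shares over all 9627 were also small, at 0.426%, 0.758% and 1.27%.

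Wide differences between heifers were found at every stage. The median SD of a member within a stage was 1.52 at CIDR+12h, 1.58 at CIDR+24h, 1.34 at Oestrus, 1.31 at Oestrus+12h, 1.21 at Oestrus+48h and 1.503 at Luteal, on the log2 scale. For 58 members (29%) the largest of the 6 SDs was at CIDR+24h, where 23.3% of all 9627 transcripts had theirs. Only 12 members (6%) had it at Oestrus+48h, against 20.4% of all 9627. A heifer with 0 counts was found for 14 members, which were all 14 such transcripts among the 9627. At most 3 counts in a heifer were found for 33 members, of 35 such transcripts. These shares describe the members and were not tested, because the rule used the same deviations.

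Many members varied together, as did many of the transcripts they were drawn from. The median absolute correlation of 2 members was 0.308, against 0.298 among all 9627. When members were joined by the correlation of their within-stage deviations over the 30 heifers (average linkage, mean correlation of at least 0.7), 131 of 200 fell into 9 groups of 5 or more. These are lettered A to I by size and hold 31, 26, 25, 16, 9, 8, 6, 5 and 5 members. A further 42 members lay in 16 sets of 2 to 4, and 27 stood alone. The other transcripts were not grouped in this way, so these counts have no comparison. The members are not 200 separate signals. A correlation over 0.99 with another member was found for 65 of them (32.5%), against 15.5% of all 9627 with another of those. At a correlation over 0.9 the shares were 62.5% and 61.7%. A transcript has far more possible partners among the 9627 than a member has among the 200, so these shares are not on equal terms. Joining members correlated over 0.99 leaves 164 sets, and joining those correlated over 0.9 leaves 99. Transcripts of 1 gene or of near-identical copies can share reads, and this could not be checked without gene names. The groups were made from the same values that chose the members, so their levels are a description with no test.

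**Figure D2:**
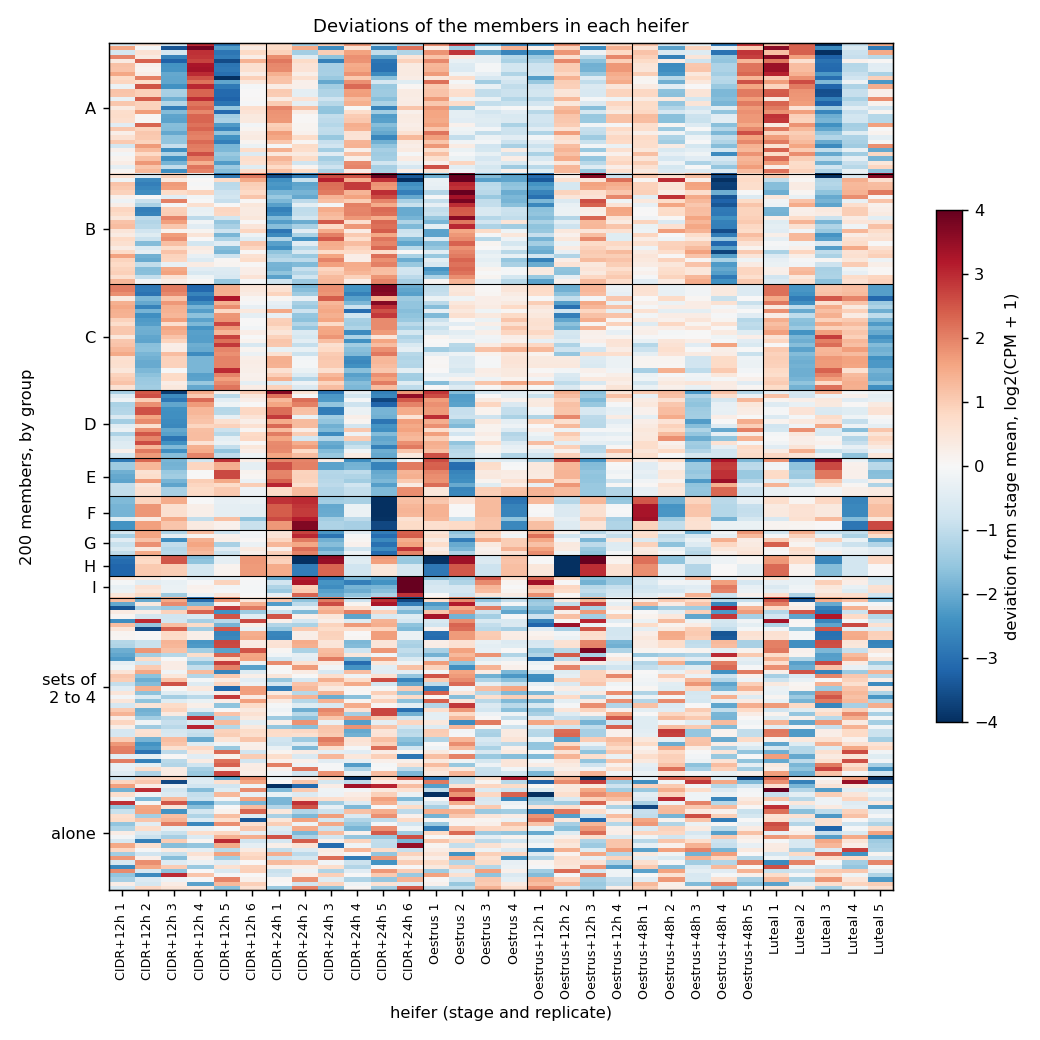
Rows are the 200 members by group and columns the 30 heifers by stage, and the colour is the deviation from the stage mean of log2(CPM + 1), red above and blue below. The 31 members of group A are mostly red in CIDR+12h replicate 4 and mostly blue in Luteal replicate 3, and group B is red in Oestrus replicate 2 and blue in Oestrus+48h replicate 4.

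Group A, the largest, held 31 members with means from 10.5 to 512 CPM and a mean pairwise correlation of 0.806. The level of a group in a heifer is given as the median CPM of its members. Group A had 12.4 CPM in the lowest CIDR+12h heifer, 99.6 CPM at the median and 421 CPM in the highest. At CIDR+24h the lowest, median and highest were 26.2, 104 and 282 CPM. Heifers of the same stage thus differed widely at both times after device removal, and the stages overlapped. At Oestrus the 4 heifers had 116, 47.7, 26.5 and 28.7 CPM. Oestrus+12h heifers had 34.6, 149, 27.6 and 146 CPM. At both stages high and low heifers stood side by side. At Oestrus+48h the values were 135, 25.7, 53.8, 15.7 and 246 CPM, and at Luteal 229, 197, 10.6, 30.1 and 75.8 CPM. The highest heifer over all stages was CIDR+12h replicate 4 and the lowest Luteal replicate 3. Within a stage the highest exceeded the lowest by 4.26-fold at Oestrus and by up to 31.6-fold at CIDR+12h on the CPM + 1 scale.

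Group B held 26 members, among them the member with the largest SD of all. At CIDR+12h its lowest, median and highest heifers had 22.1, 56.9 and 102 CPM, and at CIDR+24h 7.07, 43.2 and 139.6 CPM (replicate 5). At Oestrus, replicate 2 had 153 CPM and the other 3 heifers 9.45, 9.41 and 5.96 CPM. A single heifer thus stood far above the rest of its stage. The Oestrus+12h heifers had 7.18, 28.1, 90.3 and 62 CPM. At Oestrus+48h the order was turned, with replicate 4 at 3.44 CPM below the other 4 at 48.1, 66.1, 84.8 and 75.1 CPM. Luteal heifers had 33.9, 73.2, 14.2, 64.2 and 92.1 CPM. Group B was therefore low in a single heifer at one stage and high in a single heifer at another.

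Group C, with 25 members and a mean pairwise correlation of 0.846, fell into separate levels. In 7 heifers it lay at or below 4.59 CPM and in the other 23 at or above 15.4 CPM. The 7 low heifers came from 3 stages, CIDR+12h (4.38 and 3.34 CPM in replicates 2 and 4), CIDR+24h (4.59, 1.88 and 3.34 CPM in replicates 2, 4 and 6) and Luteal (4.28 and 3.29 CPM in replicates 2 and 5). The other heifers of these stages reached 106 CPM (CIDR+12h replicate 5), 39.4 CPM (CIDR+24h replicate 5) and 66.4 CPM (Luteal replicate 3). No heifer of the 3 stages from onset to 48 h was low. Their levels were 37.8, 29.6, 44.8 and 61.3 CPM at Oestrus, 55.2, 17.7, 53.1 and 38.0 CPM at Oestrus+12h, and 26, 38.2, 27.3, 29.5 and 32.9 CPM at Oestrus+48h. The median of group C was thus nearly even at Oestrus+48h, where its range was 1.45-fold on the CPM + 1 scale. Its range was widest at CIDR+12h, at 24.7-fold. Whether the stages differ in this spread was not tested, because the members were chosen on it.

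Groups D, E and G resembled one another. Group D (16 members) was highest in Oestrus replicate 1 (124 CPM, against 20.3 to 36.4 CPM in the other Oestrus heifers) and lowest in CIDR+12h replicate 3 (3.01 CPM). Group E (9 members) was highest in Oestrus+48h replicate 4, at 137 CPM. The other Oestrus+48h heifers had 2.85 to 20.3 CPM of group E. These 9 members rank as high as place 6 by SD. Group G (6 members) had 103 CPM in both CIDR+24h replicates 2 and 6, against 2.76 to 38.6 CPM in the other 4 heifers of that stage. At Luteal the median of the same group lay between 4.59 and 9.95 CPM, while its highest member ran from 11.1 CPM in replicate 4 to 76.0 CPM in replicate 1. The correlations over 30 heifers were 0.662 between D and E, 0.775 between D and G, and 0.628 between E and G. They were not the only groups alike: G had a correlation of 0.691 with I, and D of 0.591 with A.

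Groups F and H each ranged more widely than A to E. Group F (8 members) had 342 CPM in CIDR+24h replicate 2 and 1.42 CPM in replicate 5 of the same stage, a 142-fold range on the CPM + 1 scale. At Oestrus+12h it was low in every heifer, from 4.62 to 12.4 CPM. Group H (5 members) was the tightest, with a mean pairwise correlation of 0.970, and its 5 transcripts form 2 sets at a correlation over 0.99. It had 608 CPM in Luteal replicate 1 and 0.974 CPM in CIDR+24h replicate 2. At Oestrus+12h it reached 411 CPM in replicate 3 and 2.34 CPM in replicate 2, so heifers killed at the same stage differed 123-fold on the CPM + 1 scale.

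Group I (5 members) had a median near 0 CPM in most heifers. At CIDR+24h, replicate 6 had 346 CPM and replicate 2 had 63.3 CPM, and the remaining 4 had at most 1.45 CPM. All 6 CIDR+12h heifers lay between 0.0971 and 0.986 CPM. Elsewhere the highest values were 26.5 CPM in Oestrus+12h replicate 1, 11.2 CPM in Oestrus replicate 3 and 7.13 CPM in Oestrus+48h replicate 4. The low heifers gave few counts, and 4 of the 5 members had a count of 0 in at least 1 heifer. These 4, ranked 19, 34, 48 and 54, reached the rule's mean of 10 CPM only with CIDR+24h replicate 6, so its high level was part of their choice. The fifth, ranked 199, was never below 5.93 CPM and reached 239 CPM in CIDR+24h replicate 6.

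**Figure D3:**
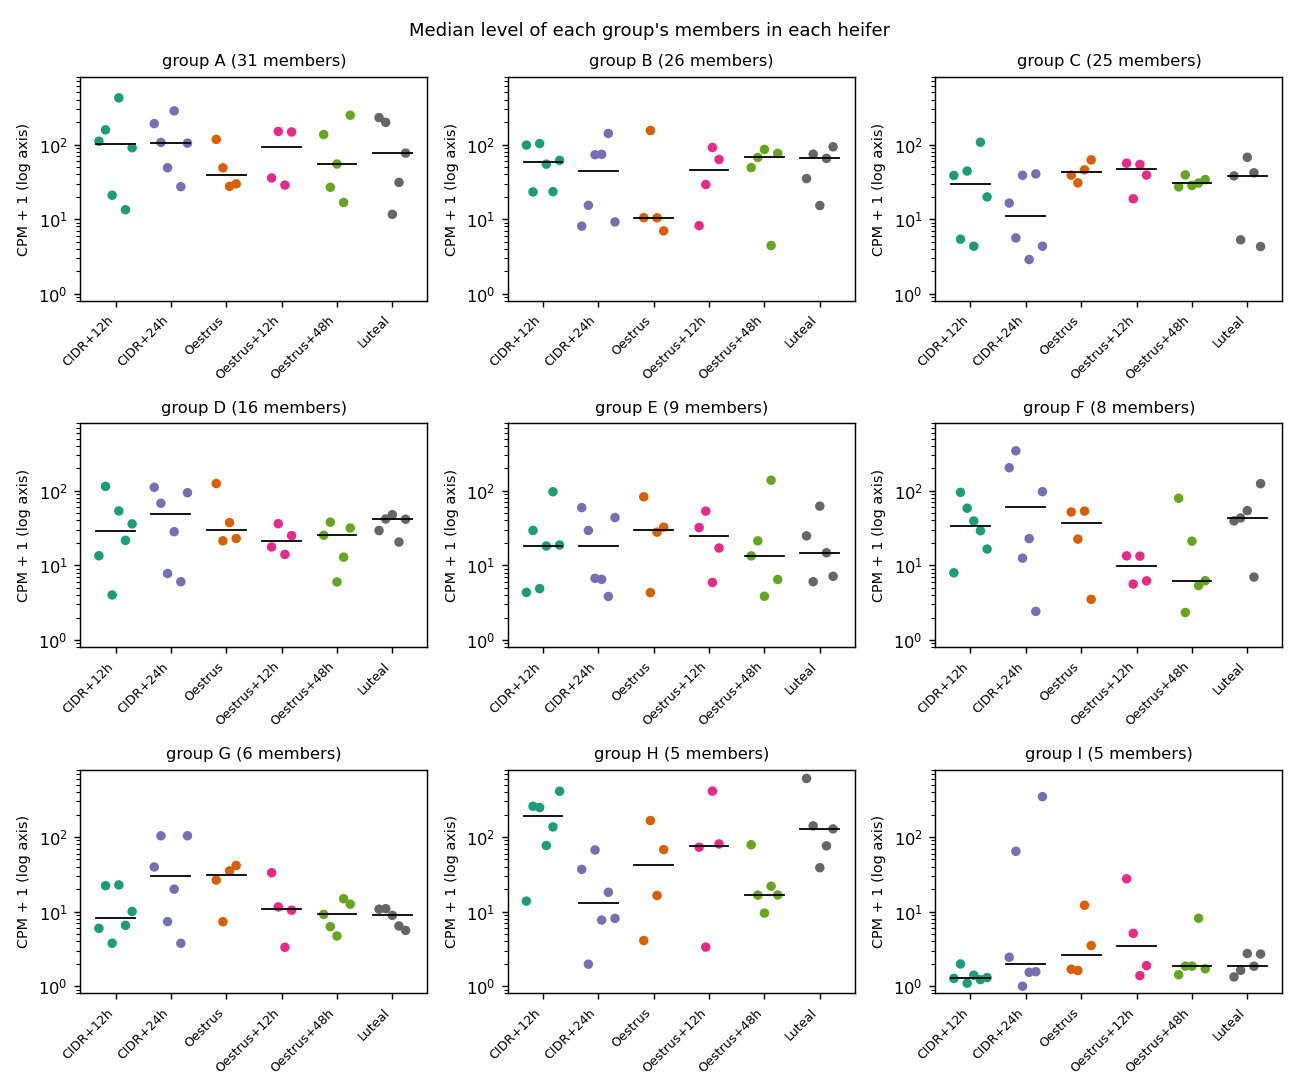
Each point is 1 heifer and gives the median CPM + 1 of a group's members on a log axis, by stage, with a line at the stage median. Group A spans 12.4 to 421 CPM at CIDR+12h alone, group C shows 7 heifers at or below 4.59 CPM, and group I is low in nearly every heifer and reaches 346 CPM in 1.

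Some groups moved in opposite directions. Between groups B and E the Pearson correlation of mean deviations over 30 heifers was -0.899 and Spearman's rho was -0.889. Without the 2 heifers farthest from the centre of group B the Pearson correlation was -0.865. Oestrus+48h replicate 4 had the lowest group B and the highest group E, and Oestrus replicate 2 had the highest group B and 3.31 CPM of group E. Between A and C the correlation was -0.662, and between B and G it was -0.764, while A and B were almost unrelated at -0.0132. These correlations are descriptions over the heifers that chose the groups and carry no p-value. All 36 pairs of groups were compared.

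The scaling of libraries moved with these groups. The within-stage deviations of the TMM factor had a correlation of -0.748 with group B and of 0.729 with group E. The share of counts in the 10 most abundant transcripts had one of -0.707 with group C. The number of transcripts with a count had one of 0.707 with group D and of 0.621 with group E, and the log2 library total had between -0.246 and 0.358 with the 9 groups. The part of these library measures in the groups was not tested. With TMM-scaled CPM the correlation of B with E was -0.887, and the members of each of the 9 groups stayed together, 31 of 31 in group A and 26 of 26 in group B. Leaving out 1 heifer kept at least 22 of 31 together in group A (without CIDR+12h replicate 3), 23 of 26 in B, 23 of 25 in C and 13 of 16 in D (without Luteal replicate 3). In group I, 3 of 5 stayed together without CIDR+24h replicate 6, and 3 of 5 with Spearman correlation.

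**Figure D4:**
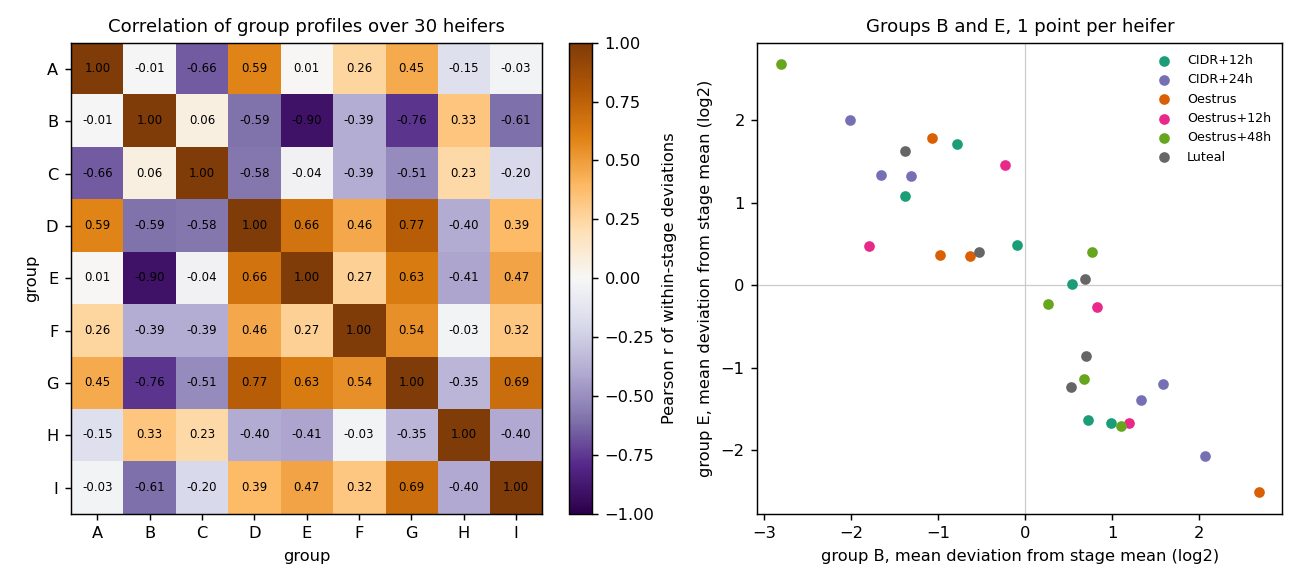
Left, Pearson correlations of the mean within-stage deviations of groups A to I over 30 heifers, from -0.899 (B and E) to 0.775 (D and G). Right, the mean deviation of group E against that of group B in log2 units, 1 point per heifer coloured by stage, falling from Oestrus+48h replicate 4 at the upper left to Oestrus replicate 2 at the lower right.

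Many transcripts outside the members moved with groups A to E and G, and few with F, H and I. The 10533 others with a mean of at least 10 CPM were compared with each group. Among them, 325 followed group A with a correlation over 0.7, 679 followed B, 779 C, 649 D, 1349 E and 891 G. Only 32 followed F, 11 followed H and 54 followed I. A correlation under -0.7 was found for 1571 transcripts with group B, 692 with E and 377 with C. The counts over 0.7 depended on the scaling: with TMM-scaled CPM, 1473 transcripts followed B and 624 followed E. Group A then had 426 followers, C 523, D 617 and G 658. The same scaling gave 20 for F and 25 for I. It also moved the counts under -0.7, to 655 with B, 1594 with E and 746 with C. Of the 93 transcripts with a mean of 1000 CPM or more, 13 followed group A and 14 group B. The nearest transcript outside the members had a correlation of 0.976 with group A, 0.965 with B, 0.978 with C and 0.816 with F.

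The transcript ENSBTAT00000015977, in group B, had the largest within-stage SD, 2.61 on the log2 scale. It had 0.344, 273, 0.519 and 0.157 CPM in the 4 Oestrus heifers. At Oestrus+12h it had 1.29, 21.0, 244.8 and 9.75 CPM. A single heifer stood far above the others at each of these stages, replicate 2 at Oestrus and replicate 3 at Oestrus+12h. At Oestrus+48h the values were 24.2, 17.4, 26.8, 0 and 18.7 CPM, and at Luteal 56.6, 30.7, 0.374, 17.7 and 357 CPM. The lowest, median and highest were 2.95, 32.4 and 119.8 CPM at CIDR+12h and 0, 32.3 and 258 CPM at CIDR+24h. The 0 values were 0 counts, which allow up to 0.396 CPM in Oestrus+48h replicate 4 and 0.482 CPM in CIDR+24h replicate 1. All stages overlapped.

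ENSBTAT00000032084, ranked 6 with an SD of 2.02 on the log2 scale, lies in group E, the group that ran opposite to B. It had 94.0 CPM in Oestrus replicate 1 and 3.93, 10.1 and 9.88 CPM in the other 3. Oestrus+12h heifers had 5.34, 101, 2.19 and 35.2 CPM, and those at Oestrus+48h 22.3, 32.8, 2.43, 179 and 4.52 CPM. The heifer without a count of ENSBTAT00000015977 at Oestrus+48h, replicate 4, had the most of ENSBTAT00000032084. At Luteal it had 47.9, 0.504, 162, 10.5 and 2.84 CPM. Its lowest and highest values were 1.26 and 114 CPM at CIDR+12h and 1.34 and 47.9 CPM at CIDR+24h.

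ENSBTAT00000021456 in group H, ranked 2 with an SD of 2.25, was the most abundant of the 4 named members, at a mean of 688 CPM. It had 238, 9.53, 4625 and 275 CPM at Oestrus+12h, and 5.16, 1031, 61.7 and 219.8 CPM at Oestrus. Both stages thus held a heifer under 10 CPM beside one over 1000 CPM. At Oestrus+48h it had 725, 51.9, 109, 137 and 165 CPM, and at Luteal 1986, 1048, 101, 358 and 1084 CPM. It ranged from 75.0 to 3347 CPM at CIDR+12h and from 2.64 to 850.4 CPM at CIDR+24h. A second member followed it with a correlation of 0.9996, so these are not separate signals.

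ENSBTAT00000027735, ranked 5 with an SD of 2.10, belonged to no group, and its highest correlation with another member was 0.461. Outside the members, the nearest transcript had a correlation of 0.696 with ENSBTAT00000027735. By level, this member fell into 2 sets of heifers. In 4 heifers of 4 stages it lay at or below 2.02 CPM, and in the other 26 at or above 14.1 CPM. The 4 were CIDR+24h replicate 4 (0.268 CPM, 2 counts), Oestrus+12h replicate 3 (0.387 CPM, 3 counts), Oestrus+48h replicate 5 (2.02 CPM, 17 counts) and Luteal replicate 5 (0.454 CPM, 4 counts). At the other end, Oestrus replicate 4 had 1067 CPM, against 14.1, 50.0 and 186 CPM in the other Oestrus heifers.

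**Figure D5:**
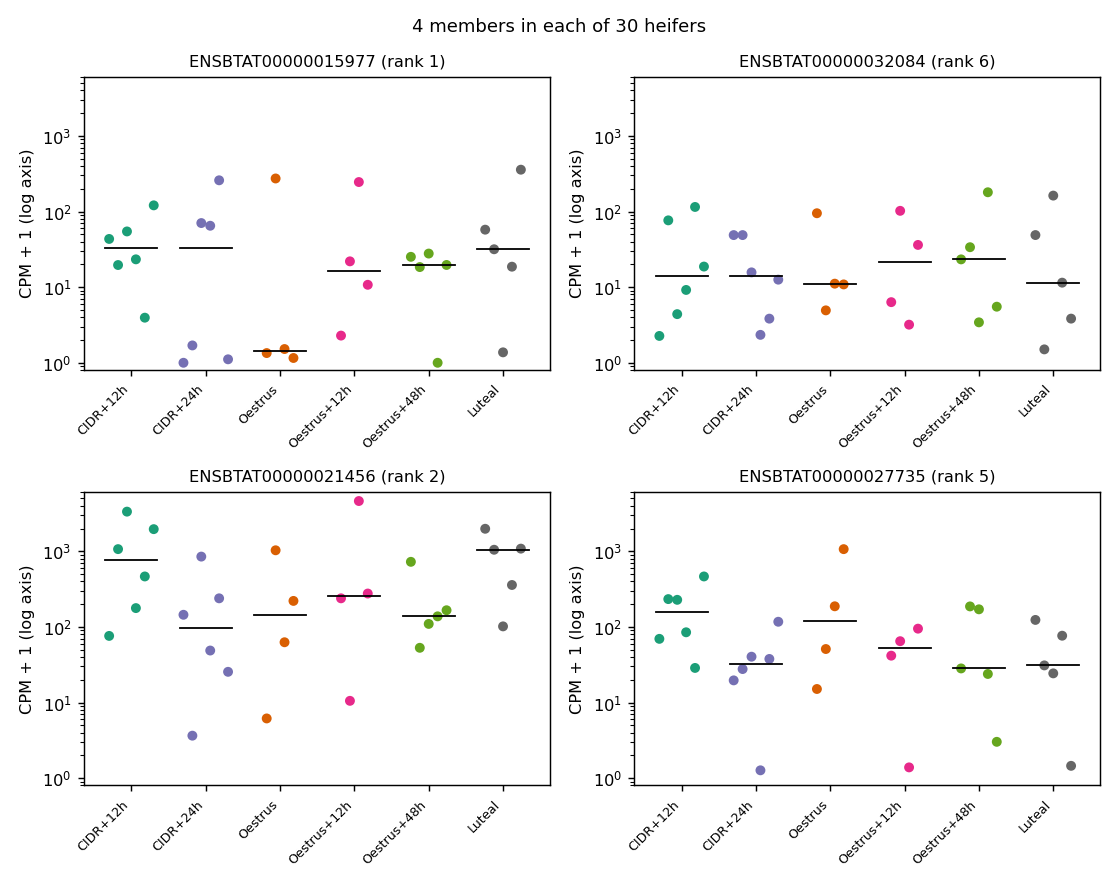
Levels of ENSBTAT00000015977, ENSBTAT00000032084, ENSBTAT00000021456 and ENSBTAT00000027735 as CPM + 1 on a log axis, 1 point per heifer by stage, with a line at the stage median. Every panel shows heifers of 1 stage far apart, such as 273 CPM against 0.157 to 0.519 CPM at Oestrus in the first.

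A gap of this kind was found in several members. The largest gap between neighbouring heifers exceeded 2 on the log2 scale of CPM + 1 (4-fold) in 14 members, and in 19 of all 9627 transcripts. The member ranked 58 had 0 counts in Oestrus replicate 1 and 4 counts (0.736 CPM) in Oestrus+12h replicate 1, and between 30.3 and 164 CPM in all other heifers. Rank 41 had 0 and 17 counts (2.36 CPM) in CIDR+24h replicates 1 and 2, and 34.8 CPM or more in the other 28. Rank 103 had 0, 1 and 1 counts in CIDR+12h replicate 6, Oestrus+12h replicate 3 and Oestrus+48h replicate 4, and at least 5.49 CPM elsewhere. These 3 members stood alone, in no group or set. The reverse was seen at rank 47, with 56.4 to 90.1 CPM in 4 heifers (CIDR+12h replicates 2 and 6, Oestrus+12h replicate 3 and Luteal replicate 1) and at most 8.69 CPM in the other 26. The members ranked 67 and 69 were low together in the same 5 heifers of 5 stages, at 24.6 to 48.8 CPM and 18.8 to 33.2 CPM, against at least 259 and 185 CPM in the other 25. Both also rose together, to 1162 and 780 CPM in Oestrus replicate 2, so they are not separate signals.

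Members were compared across the 6 stages with edgeR's quasi-likelihood test over all 16940 transcripts with enough counts, and all 200 were tested. Of these, 3 passed at a Benjamini-Hochberg adjusted p under 0.05. Over all tested transcripts 39 passed, which is 0.23%. The rule limits the stage medians of the members, so nothing is read from this count. All 3 were in group I, ranked 48, 54 and 19, with edgeR adjusted p of 0.0199, 0.0225 and 0.0385, and their highest mean was at CIDR+24h. Their highest stage median was at Oestrus+12h instead, at 1.46, 1.16 and 5.05 CPM. Counts of ranks 48 and 54 rose and fell together over the heifers, with 4195 and 3114 in CIDR+24h replicate 6 and 71 and 58 in replicate 2. These 2 members are therefore not separate signals. Both met the rule's mean of 10 CPM through CIDR+24h replicate 6, the only heifer in which either reached 10 CPM. Rank 19 also needed that heifer to reach this mean, with 393 CPM there and at most 65.1 CPM elsewhere. The p-values of all 3 thus rest on the heifer that admitted them. The member ranked 48 had 79.8 ± 190 CPM at CIDR+24h (SD, n = 6), from 467 CPM in replicate 6 and at most 9.88 CPM in any other heifer of the study. Its means at the other stages ranged from 0.36 CPM at CIDR+12h to 2.11 CPM at Oestrus. The member ranked 19 passed in 9 of the 30 fits that left out 1 heifer, and those ranked 48 and 54 in 28 each. Without CIDR+24h replicate 6 edgeR called 0 members (23 at an unadjusted p under 0.05) and 51 of 16887 transcripts. Leaving out CIDR+12h replicate 4 also gave 0 members (27 unadjusted), and 6 of 16899 transcripts. Without CIDR+24h replicate 3 edgeR called 5 members and 57 of 16949 transcripts. Leaving out replicate 5 of that stage gave 6 members and 65 of 16948 transcripts. Without the 3 heifers with 2-digit numbers it called 0 of 17355 transcripts, so its 0 members (25 at an unadjusted p under 0.05) say nothing about the members. DESeq2 called 11 members at an adjusted p under 0.05, and 1.72% of all transcripts to which it gave one. At an unadjusted p under 0.05, edgeR called 27 members, or 13.5%, and 10.9% of all tested transcripts.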

How the data were processed

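Polyadenylated RNA was sequenced as single reads on the standard Illumina procedure, per the labels' protocols, and the submitters' processing notes name CASAVA 1.0. The aligner, counter, genome build, annotation release and strand setting are not given in the sources used here, so reads of overlapping or antisense transcripts cannot be assigned with certainty. The authors deposited whole-number counts, with 28054 Ensembl transcript IDs for each of the 30 heifers. Values rest on library totals of 5434853 to 19628122 counts. Groups follow the stage in the sample labels, replicates are separate heifers numbered in accession order, and nothing pairs them.

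CPM, the members, their deviations and their groups were computed from these counts in Python 3.11.15 (numpy 2.4.6, scipy 1.17.1). The 6-stage test used edgeR 4.0.16 in R 4.3.3 with TMM factors, filterByExpr (minimum count 10, minimum total 15) and a robust fit, and was checked on simulated counts. DESeq2 1.42.0 (likelihood-ratio test), other size factors, filters, pseudocounts and omissions of heifers were alternatives. The members and settings were chosen with earlier results of these data known. Gene lists could not be applied, since no ID had a gene name. The 4 named IDs are the 2 members of largest SD whose most extreme heifer lay above its stage mean and the 2 with it below, at most 1 per group. Members given by rank were chosen after their values were seen.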

Additional observations from a re-analysis of the deposited data

Results flagged for a closer look

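Within each stage, heifers were examined for a highest or lowest value separated from the rest by a large gap, in library totals, in the levels of the 9 groups and in the 4 named members. Of 84 such sets of heifers 24 held one, where chance gives about 1 in 20 for normally distributed values not chosen by their spread. The values were taken without a log2 scale, on which that rate may not hold, and all 24 were high values. The members were chosen for wide spread and several belong to 1 group, so nothing is read from that number.

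The library of CIDR+12h replicate 6 held 19628122 counts, while the others of its stage held 8819190 to 11075868. At CIDR+12h, replicate 4 had 421 CPM of group A (others up to 156), replicate 5 had 95.9 CPM of group E (others up to 28.4) and replicate 2 had 0.986 CPM of group I (others up to 0.404), the last being a matter of few counts. At CIDR+24h, replicate 6 had 346 CPM of group I (others up to 63.3) and 116 CPM of ENSBTAT00000027735 (others up to 39.4). Replicate 5 of that stage had 258 CPM of ENSBTAT00000015977 (others up to 69.5), and replicate 3 had 850.4 CPM of ENSBTAT00000021456 (others up to 238).

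At Oestrus, replicate 2 had 153 CPM of group B (others up to 9.45) and 273 CPM of ENSBTAT00000015977 (others up to 0.519). Replicate 1 had 124 CPM of group D (others up to 36.4) and 94.0 CPM of ENSBTAT00000032084 (others up to 10.1), and replicate 4 had 1067 CPM of ENSBTAT00000027735 (others up to 186). At Oestrus+12h, replicate 3 had 244.8 CPM of ENSBTAT00000015977 (others up to 21.0) and 4625 CPM of ENSBTAT00000021456 (others up to 275), and replicate 1 had 26.5 CPM of group I (others up to 4.10).

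At Oestrus+48h, replicate 4 had 137 CPM of group E (others up to 20.3), 7.13 CPM of group I (others up to 0.858) and 179 CPM of ENSBTAT00000032084 (others up to 32.8). Replicate 1 of that stage had 78.3 CPM of group F (others up to 20.1), 77.8 CPM of group H (others up to 20.9) and 725 CPM of ENSBTAT00000021456 (others up to 165). At Luteal, replicate 1 had 608 CPM of group H (others up to 139.8) and replicate 5 had 357 CPM of ENSBTAT00000015977 (others up to 56.6).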

How the results depend on the processing

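The rule chose 162 of the 200 members again with TMM-scaled CPM, 153 with a pseudocount of 5, 137 with a stage ratio under 2, 126 with the median absolute deviation in place of the SD and 130 without the 3 heifers with 2-digit numbers, which leaves fewer samples. Leaving out 1 heifer kept from 165 to 191, and 53 members were chosen in all 30 omissions. The median SD of the members was 1.11 with a pseudocount of 5 and lay between 1.29 and 1.34 over the omissions. The 3 members called by edgeR in the 6-stage test became 0 when transcripts had to reach 10 CPM in 4 or more heifers. That condition removes ranks 48 and 54 from the test, and 14 of 12371 transcripts passed under it. DESeq2 called 11 members (1.72% of all transcripts), and 27 had an unadjusted edgeR p under 0.05 (10.9% of all transcripts). Without the heifers with 2-digit numbers 0 members and 0 of all transcripts passed. Over omissions the members called ranged from 0 (without CIDR+12h replicate 4 or CIDR+24h replicate 6) to 6 (without CIDR+24h replicate 5). Beyond the removal of ranks 48 and 54 the cause was not tested. The largest group had 33 members at a mean correlation of 0.6, 23 at 0.8 and 31 with TMM-scaled CPM. The threshold on p, the scaling of groups and of their followers, and the groups without the heifers with 2-digit numbers were added after seeing the data. No paired analysis was possible because replicate numbers only follow accession order.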
